A study of Homo sapiens with 2 samples.

Results

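The 10 genes described here act where DNA replication forks stall: SLFN11, ZRANB3, SMARCAL1, HLTF, TIMELESS, TIPIN, CLSPN, MUS81, PRIMPOL and RAD18. They were listed by symbol and matched to Ensembl gene identifiers, and all 10 were found among the 31845 genes of the expression table. They were chosen by role, with their counts in the same 2 libraries already known, so the counts and ratios of the 10 are given as a description. The study profiled RNA from Capan-1, a human pancreatic adenocarcinoma line with a frameshift mutation in BRCA2, and from a derivative resistant to olaparib, an inhibitor of poly(ADP-ribose) polymerase. Each condition had 1 library (n = 1). The parental library came from untreated cells, labelled as the control. The resistant cells were obtained by raising the olaparib concentration in steps from 15 nM to 128 uM. Whether olaparib was present at harvest, and whether the resistant line is 1 clone, is not given in the sources used here. Both were described with the same culture, in RPMI1640 with 10% fetal bovine serum.

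With 1 library per condition no test between conditions was possible. Intervals below are exact 95% Clopper-Pearson intervals of the ratio and cover counting error only, and no statement on spread between cultures can be made. The table held 34572931 counts for the parental library and 34507480 for the other. The column of the resistant library is headed by an abbreviation that the labels do not spell out. It was taken as the resistant library because only that library remained, and every direction below rests on this. The labels give the cell type as breast cancer. The duct keratin KRT19 had 40864 counts in the parental and 51896 in the resistant library, whereas the oestrogen receptor ESR1 had 8 and 18. Of the 6 pancreatic duct markers in the table, 3 were 2-fold lower in the resistant library and 0 higher, with a median log2 ratio of -1.04. Of all 15102 genes with 50 counts or more in the higher library, 8.95% were 2-fold lower and 6.00% higher, with a median of 0.06. The chloride channel CFTR had 8946 and 2563 counts, CA2 670 and 136, MUC1 3572 and 1399, SOX9 2882 and 1717, and the keratin KRT7 14193 and 20455. The luminal mammary markers GATA3 and MLPH were also present, with 1884 and 486 counts for GATA3 and 2185 and 760 for MLPH. In bulk RNA, a different share of cells expressing a gene and a different amount of RNA per cell cannot be told apart.

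A stalled fork can be turned back into a 4-way junction, with the new strands annealed to each other. SMARCAL1, ZRANB3 and HLTF are the DNA translocases best known for this reversal. TIMELESS and TIPIN form a heterodimer that travels with the replisome, and with CLSPN (claspin) they help carry the checkpoint signal from ATR to CHK1. The remaining genes belong to other routes: MUS81 is a structure-specific nuclease subunit, PRIMPOL restarts synthesis beyond a lesion, RAD18 is the ubiquitin ligase that marks PCNA for lesion bypass, and SLFN11 blocks stressed forks and is widely studied as a correlate of sensitivity to DNA-damaging drugs. In cells without BRCA2, reversed forks are a substrate for nucleases that degrade the new DNA.

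What a row of the table holds bears on each value. The deposited FPKM (fragments scaled to transcript length and library size) and the count together give the length by which the count was divided. Among genes with 500 counts or more, an FPKM of 1 or more and several annotated transcripts, that length fell within 0.2% of the length of 1 GENCODE transcript for 5796 of 6572 genes (88.2%), and of those it was the longest transcript for 23.7%. The counts summed to 39.0% of the library size implied by the parental FPKM values and to 40.5% in the resistant library. For 9 of the 10 fork genes the length matched an annotated transcript, and for 1 of them, HLTF, this was the longest. In 5 of the 9 the best match was annotated as a retained intron or a processed transcript and not as protein-coding, although for RAD18 a protein-coding transcript fitted too. A count may therefore stand for 1 transcript of a gene and not for its total. How the rows were made is not given in the sources used here and was not tested.

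Rows with nearly the same count in both libraries were scarce where a gene had many annotated transcripts. Among genes with 500 counts or more, a log2 ratio within 0.05 of equal raw counts was found for 8.42% of genes with 1 transcript, 4.15% with 2 to 3, 1.39% with 4 to 6, 0.544% with 7 to 10, 0.108% with 11 to 20 and 0.388% with 21 to 106. The median absolute log2 ratio was 0.33 in the first of these classes and 0.44 in the last. The 10 fork genes had 5 to 17 annotated transcripts. Whether a row was picked among the transcripts of a gene for the size of its difference is not given in the sources used here. If it was, each ratio below is that of a selected transcript and not of the gene. The part this scarcity plays in the ratios of the fork genes was not tested.

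**Figure D1:**
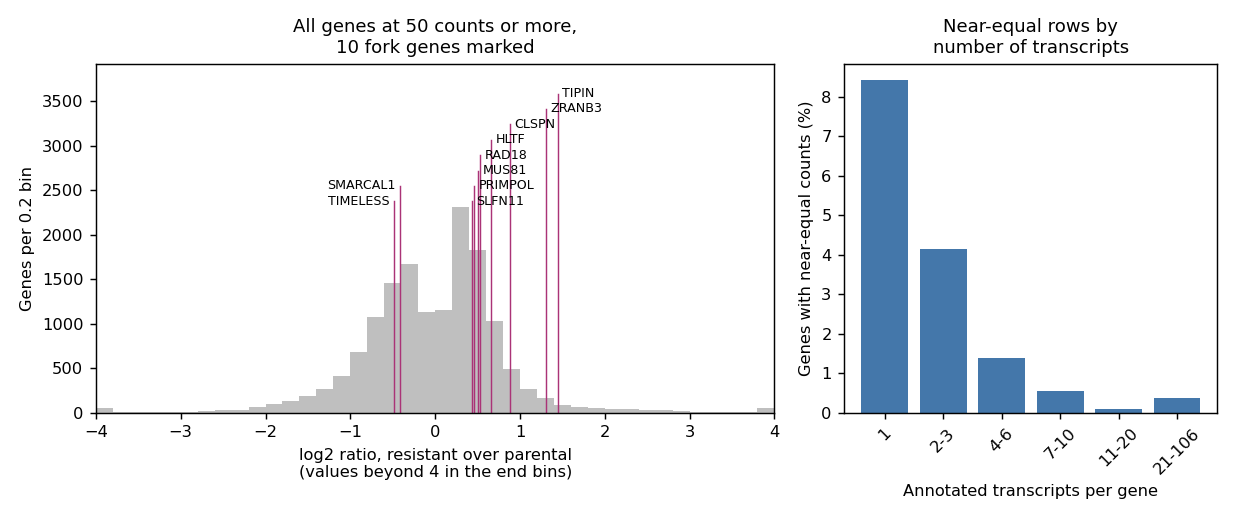
Left, number of genes per 0.2-wide bin of log2 ratio (resistant over parental) for the 15102 genes with 50 counts or more in the higher library, with the 10 fork genes marked by lines (line heights carry no value). Right, percentage of genes with 500 counts or more whose raw counts lay within 0.05 on the log2 scale, by number of annotated transcripts; the left histogram has a peak on each side of 0, and on the right the share is 8.42% for genes with 1 transcript and under 1% for those with 7 or more.

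The TIPIN and HLTF rows are the 2 whose matched transcript begins close to a RefSeq start site, so the promoter sequence of these genes is shown, with TIMELESS for comparison as the partner of TIPIN. Each line gives the 250 bases before a RefSeq start on GRCh38.p14, 5′ to 3′ on the strand of the gene. Capitals mark 3 sets of letters searched on both strands: 4 E2F-type octamers (TTTCCCGC, TTTCGCGC, TTTGCCGC and TTTGGCGC), the CCAAT box (CCAAT) and an ETS-type octamer (CCGGAAGT).
TIPIN, upstream start, chr15:66386718-66386967, minus strand: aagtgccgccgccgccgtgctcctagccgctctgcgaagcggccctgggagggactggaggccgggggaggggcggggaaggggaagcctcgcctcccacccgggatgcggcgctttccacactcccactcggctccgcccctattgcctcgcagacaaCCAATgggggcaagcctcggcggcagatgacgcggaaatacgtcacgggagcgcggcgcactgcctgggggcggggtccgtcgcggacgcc
TIPIN, downstream start, chr15:66356686-66356935, minus strand: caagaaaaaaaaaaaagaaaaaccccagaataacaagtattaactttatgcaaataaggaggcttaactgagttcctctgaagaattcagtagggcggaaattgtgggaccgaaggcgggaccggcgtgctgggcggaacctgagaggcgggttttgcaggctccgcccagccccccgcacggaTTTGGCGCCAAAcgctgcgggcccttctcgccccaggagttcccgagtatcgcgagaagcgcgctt
TIMELESS, chr12:56449427-56449676, minus strand: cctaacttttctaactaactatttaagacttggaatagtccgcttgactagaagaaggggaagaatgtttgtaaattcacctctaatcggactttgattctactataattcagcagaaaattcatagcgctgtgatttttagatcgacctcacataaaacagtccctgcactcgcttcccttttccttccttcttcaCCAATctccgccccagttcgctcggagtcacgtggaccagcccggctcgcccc
HLTF, chr3:149086534-149086783, minus strand: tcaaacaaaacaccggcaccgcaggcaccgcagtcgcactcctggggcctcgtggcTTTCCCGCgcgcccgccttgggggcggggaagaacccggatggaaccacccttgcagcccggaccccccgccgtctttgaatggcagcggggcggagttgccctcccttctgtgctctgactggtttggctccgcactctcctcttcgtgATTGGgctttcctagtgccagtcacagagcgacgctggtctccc

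The matched TIPIN transcript, TIPIN-206, starts at position -29 relative to the upstream RefSeq start, and the matched HLTF transcript, HLTF-201, starts 3 bases after its RefSeq start. The upstream TIPIN window held a CCAAT box and no E2F-type octamer. The downstream TIPIN window held a palindrome that gives an E2F-type match on each strand, with the matches overlapping. HLTF held 1 E2F-type octamer and 1 CCAAT box, and TIMELESS a single CCAAT box. All 10 fork genes had at least 1 RefSeq window, 14 windows in all. E2F-type octamers were found in 2 of the 14, against 979 of all 35116 windows of this length (2.79%). CCAAT boxes were found in 10 of the 14, against 32.0% of all windows, and the ETS-type octamer in 1 (RAD18), against 3.42%. By gene, 8 of 10 had a CCAAT box in any window. Windows of a gene can overlap, as for ZRANB3, so the same match can count more than once. These matches describe the letters of the windows only.

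TIPIN and ZRANB3 were the fork genes with the largest differences, both higher in the resistant library, while TIMELESS, the partner of TIPIN, and SMARCAL1, another translocase, were lower there. All 10 genes had 50 counts or more in the higher library. At a 2-fold difference 2 of 10 were called higher, where 6.00% of the 15102 genes at that minimum were, and 0 were called lower, where 8.95% were. For genes with 5 to 17 annotated transcripts the shares were 5.57% and 8.89%. At a 1.5-fold difference 4 were higher, where 16.8% of all genes were, and 0 lower, where 21.2% were. The log2 ratio was above 0 for 8 of 10, against 51.2% of all genes and 51.8% of those with 5 to 17 transcripts. Since the genes were chosen with these ratios known, nothing is read from these counts. The median log2 ratio of the 10 was 0.52 and their mean 0.53. Over all genes the median was 0.06, with quartiles of -0.50 and 0.44. The counting interval excluded a ratio of 1 for 10 of 10 and for 84.9% of all genes, so at this depth it sets few genes apart.

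**Figure D2:**
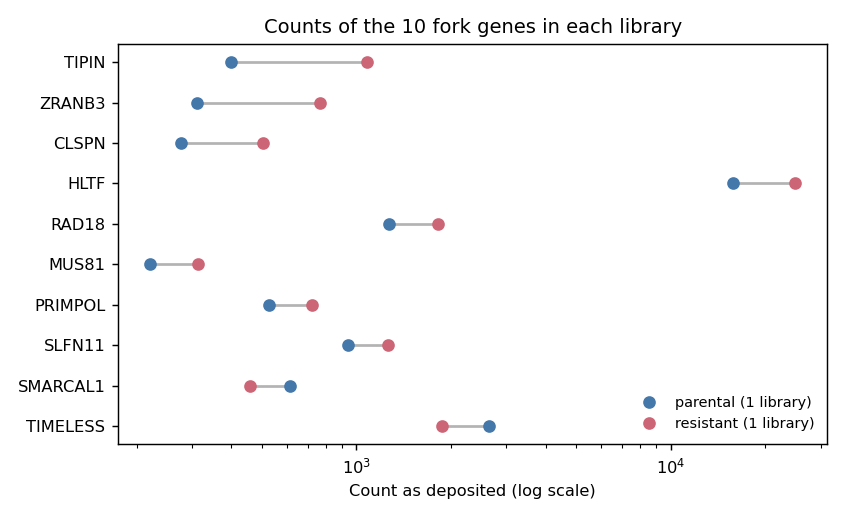
Deposited counts (log axis) of the 10 fork genes, 1 point per library, joined by a line and ordered by log2 ratio. TIPIN and ZRANB3 show the widest gaps, and SMARCAL1 and TIMELESS are the 2 genes whose resistant point lies to the left of the parental point.

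Among the rows of the 3 fork-reversing translocases, those of ZRANB3 and HLTF were higher in the resistant library and that of SMARCAL1 was lower. ZRANB3, which binds polyubiquitinated PCNA at stalled forks, had 311 counts in the parental and 765 in the resistant library. After scaling this was 2.48-fold higher (2.17 to 2.83), a log2 ratio of 1.31, and 96.5% of all genes had a lower ratio. Its row matched the length of ZRANB3-204, at 2572 bases a processed transcript, where the longest transcript of the gene has 6943 bases. ZRANB3-204 starts 291724 bases downstream of the nearest RefSeq start. Under that match the row gives no value for protein-coding ZRANB3 transcripts. Of the 50-base stretches of that transcript, 3.84% occur in no other transcript of ZRANB3.

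SMARCAL1, which is recruited to forks by the single-strand binding protein RPA, had 616 and 458 counts. The resistant library was 1.34-fold lower, a log2 ratio of -0.42 (-0.60 to -0.24). Its row matched SMARCAL1-203, a protein-coding transcript of 2431 bases, and 2.02% of the 50-base stretches of that transcript are found in no other SMARCAL1 transcript. SMARCAL1 and ZRANB3 lie on the same chromosome, 2, and differed in direction. The count of ZRANB3 was 0.505 of that of SMARCAL1 in parental cells and 1.67 of it in resistant cells. That ratio thus differed 3.31-fold, and library scaling cancels in it. Because the ZRANB3 row matches a transcript not annotated as protein-coding, this ratio compares the deposited rows and not the amounts of the translocases.

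HLTF, a RAD5-related translocase and ubiquitin ligase, had the highest counts of the 10 genes, 15800 in the parental and 24863 in the resistant library. It was 1.58-fold higher (1.55 to 1.62), with a log2 ratio of 0.66. By length its row is the one best tied to the gene, since it matched HLTF-201, the longest transcript and a protein-coding one, at 5317 bases. Of the 50-base stretches of HLTF-201, 0.0% are in no other HLTF transcript. Relative to SMARCAL1 the HLTF count was 25.6 times as high in parental cells and 54.3 times in resistant cells. These ratios compare the counts of rows of unlike length, so they do not give relative amounts.

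Rows of the fork protection genes differed in direction: those of TIPIN and CLSPN were higher in the resistant library and that of TIMELESS was lower. TIPIN had 398 and 1080 counts, 2.73-fold higher (2.43 to 3.07) with a log2 ratio of 1.45, above that of 97.1% of all genes. Its row matched the protein-coding TIPIN-206 of 685 bases, and 40.3% of the 50-base stretches of this transcript are in no other TIPIN transcript. The ribosomal protein pseudogene RPL9P25 lies within TIPIN on the same strand and covers 579 exonic bases of it. RPL9P25 itself had 25 and 18 counts, and its source gene RPL9 had 43701 and 53298, a log2 ratio of 0.30. Over all TIPIN transcripts 20.1% of the 50-base stretches are shared with other genes, mostly with RPL9P25. Within TIPIN-206 3.77% are shared with other genes, and the top gene there is AC233728.2, not RPL9P25.

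TIMELESS, the larger subunit of the heterodimer, had 2644 counts in the parental line and 1874 in the resistant line. This was 1.40-fold lower in the resistant library, a log2 ratio of -0.49 (-0.57 to -0.40), and 25.9% of genes had a lower ratio. Its row length of 2578 bases was the only one of the 10 that matched no annotated transcript. The log2 ratios of TIPIN and TIMELESS differed by 1.93. The TIPIN count was 0.151 of the TIMELESS count in parental cells and 0.576 in resistant cells. That ratio thus differed 3.83-fold, and library scaling cancels in it. Because the TIPIN row matches 1 short transcript, this ratio compares the deposited rows and not the amounts of the subunits.

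CLSPN, the adaptor through which ATR activates CHK1, had 277 and 506 counts. It was 1.84-fold higher (1.59 to 2.14), with a log2 ratio of 0.88, and its counting interval reached past 2-fold. The row matched CLSPN-204, a processed transcript of 717 bases where the longest has 4769, and 40.3% of the 50-base stretches of CLSPN-204 are in no other CLSPN transcript. Under that match the row gives no value for protein-coding CLSPN transcripts. CLSPN stood just outside the 2-fold rule, and ZRANB3 was the called gene nearest to it.

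**Figure D3:**
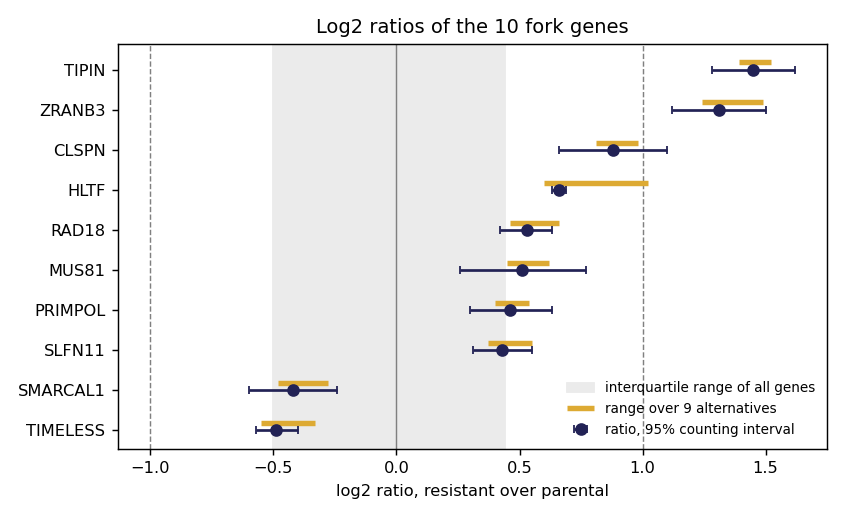
Log2 ratio (resistant over parental) of each fork gene with its 95% counting interval, the range over 9 other ways of processing (yellow) and the interquartile range of all genes (grey band, -0.50 to 0.44); dashed lines mark 2-fold. TIPIN (1.45) and ZRANB3 (1.31) lie beyond 2-fold, HLTF has the narrowest interval and the widest range over processing, and SMARCAL1 and TIMELESS lie below 0.

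The rows of the genes for fork cleavage, repriming and lesion bypass were all higher in the resistant library by less than 1.5-fold. MUS81, which with EME1 or EME2 cuts branched fork structures, had 221 and 314 counts, the lowest of the 10, and was 1.43-fold higher, a log2 ratio of 0.51 (0.26 to 0.77). Its row matched MUS81-205, a processed transcript of only 285 bases, whereas the longest has 3420. Under that match the row gives no value for protein-coding MUS81 transcripts. CFL1, on the opposite strand, overlaps 13.9% of the exonic length of MUS81 and had 559 and 682 counts. The libraries were made with a strand-specific kit, but whether counting used strand is not given in the sources used here.

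PRIMPOL, the primase-polymerase that restarts synthesis past lesions, had 527 and 723 counts and was 1.38-fold higher (1.23 to 1.55). Its row matched PRIMPOL-204, a protein-coding transcript of 518 bases. CENPU overlaps 12.2% of the exonic length of PRIMPOL on the opposite strand and had 3851 and 4912 counts. RAD18 had 1269 and 1815 counts and was 1.44-fold higher (1.34 to 1.55). The RAD18 row fitted a retained-intron transcript of 556 bases, RAD18-209, or the protein-coding RAD18-206 of 557 bases, and the deposited values do not separate them. These 3 genes differed from one another by less than their counting intervals.

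SLFN11 had 938 counts in parental cells and 1256 in resistant cells. It was 1.35-fold higher (1.24 to 1.47), a log2 ratio of 0.43, just below the upper quartile of all genes at 0.44. The deposited FPKM was 18.3 and 25.5. The row matched SLFN11-207, a retained-intron transcript of 579 bases, where the longest SLFN11 transcript has 5030 bases. Of the 50-base stretches of SLFN11-207, 51.3% are in no other SLFN11 transcript and none are in another gene. Over all SLFN11 transcripts 9.69% are shared with other genes, all of them with SLFN13. If that match holds, the row gives no value for the transcripts that encode the protein.

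Other genes of the Schlafen family did not share 1 direction. SLFN12L had 102 and 199 counts, a log2 ratio of 0.97, and SLFN12 had 1529 and 1654. SLFN5 had 3188 and 1924 counts, a log2 ratio of -0.72, and SLFN13 had 867 and 712. Of the 6 listed, 4 reached 50 counts, 0 of these passed 2-fold in either direction, and their median log2 ratio was -0.08. SLFN14 and SLFNL1 had fewer than 10 counts in each library. The SLFN11 count was 0.294 of the SLFN5 count in parental cells and 0.653 in resistant cells. Because the SLFN11 row matches a retained-intron transcript, these ratios compare the deposited rows and not the genes.

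Levels can be compared between genes only per length, here by deposited FPKM, which carries the length of 1 transcript. On that scale HLTF was first in both libraries, at 33.5 and 54.9, followed by RAD18, at 25.7 and 38.4. ZRANB3, at 1.36 and 3.50, and SMARCAL1, at 2.86 and 2.21, were the 2 lowest genes and exchanged places between libraries. TIPIN ranked 7 of 10 in the parental library at 6.55 and 4 of 10 in the resistant library at 18.5. TIMELESS ranked 4 of 10 at 11.6 and then 7 of 10 at 8.54. By counts per kilobase of the full exonic length in GENCODE the order was different. HLTF was again first in both libraries, but TIMELESS ranked 2 and then 3 of 10, TIPIN 6 and then 2, and RAD18 4 in both. On that scale SMARCAL1 ranked 7 and then 8, MUS81 9 and then 10, and ZRANB3 10 and then 9. TIPIN ranked higher, and TIMELESS and SMARCAL1 lower, in the resistant library on both scales. Both divide the same counts by a length fixed for each gene, so the directions on them are not independent. Where a row holds 1 transcript, the full exonic length is not the length of that row. Without replicates, neighbours in this order cannot be told apart beyond counting error.

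The wider pathway is given for comparison. Over 9 lists of genes for fork remodelling, replisome partners, protection of nascent DNA, fork nucleases, checkpoint, bypass, Schlafen family, S phase and G2/M, 112 genes other than the 10 were in the table and 110 reached 50 counts. Of these, 2 were 2-fold higher, 2 were 2-fold lower, 72 had a log2 ratio above 0, and the median was 0.26. Over all genes at that minimum, 6.00% were 2-fold higher, 8.95% were 2-fold lower and 51.2% were above 0, with a median of 0.06. These all-gene values stand beside each of the 9 lists. The calls were in protection of nascent DNA and among the nucleases. Matched transcripts of the list genes are not given here, so a value may not be that of the gene as a whole. BRCA2, which acts in homologous recombination and shields nascent DNA, had 1381 and 7585 counts, a log2 ratio of 2.47. RIF1, which also limits degradation of nascent DNA, had 30 and 67 counts, with a log2 ratio of 1.14. The counting interval of its ratio, 1.44 to 3.58, reached below 2-fold. SETD1A, a histone H3K4 methyltransferase, had 309 and 127 counts, with a log2 ratio of -1.27. GEN1, a Holliday junction resolvase, had 990 and 489 counts, with a log2 ratio of -1.01. GEN1 was only just past 2-fold, and the methyltransferase KMT2D, with 1391 and 691 counts, and RAD1, with 4424 and 8782, were just short of it. With upper-quartile factors log2 ratios over all genes shifted by a median of 0.07. This was more than the distance of these 3 genes from the threshold, so the calls of 2 and 2 rest on the scaling. POLE and SLFN12L, each at 0.97, lay within that shift of 2-fold, so the absence of calls in their lists also rests on it.

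Other remodelling genes did not show the size seen for ZRANB3: 0 of 12 passed 2-fold, 8 were above 0 and the median log2 ratio was 0.18. The largest was XRCC2, a homologous recombination gene, at 0.75. Replisome partners were mostly higher in the resistant library, 10 of 11 with a median of 0.57 and 0 past 2-fold. The largest there were POLE, the catalytic subunit of the leading-strand polymerase, at 0.97, and GINS2, a subunit of the replicative helicase, at 0.88. TIMELESS at -0.49 lay below all 11 of these partners, the lowest of which was at -0.28, and TIPIN at 1.45 lay above them.

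Checkpoint genes included 10 of 16 above 0 with a median of 0.32 and 0 calls. RAD1, part of the 9-1-1 clamp, had a log2 ratio of 1.00, and ETAA1, an activator of ATR, had a log2 ratio of 0.79. RIF1 and RAD1 were the list genes with ratios nearest to those of TIPIN and ZRANB3, over this 1 pair of libraries. Bypass genes, the group closest to RAD18 and PRIMPOL, were divided, with 7 of 15 above 0 and a median of -0.08. The largest positive values were 0.86 for the polymerase POLK and 0.79 for UBE2B, a partner enzyme of RAD18 with only 62 and 107 counts. Of the 8 nucleases listed besides MUS81, 5 were above 0, with a median of 0.38, and its partners EME1 and EME2 had log2 ratios of 0.33 and 0.53.

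Cell-cycle lists stood beside these values. S-phase genes were above 0 in 13 of 15, with a median log2 ratio of 0.38 and the largest values for MCM4 at 0.89 and ORC1 at 0.72. G2/M genes were divided, 6 of 12 above 0 with a median of 0.06, the largest being AURKB at 0.76 and BUB1B at 0.70. The part of cell-cycle phase in the ratios of the fork genes was not tested. Summed counts of fibroblast markers were 133 and 580, of which LUM gave 35 and 523, and COL1A1 had 97 and 38. Summed leukocyte markers were 366 and 602, of which CD68 gave 351 and 582, and summed endothelial markers were 3 and 3.

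**Figure D4:**
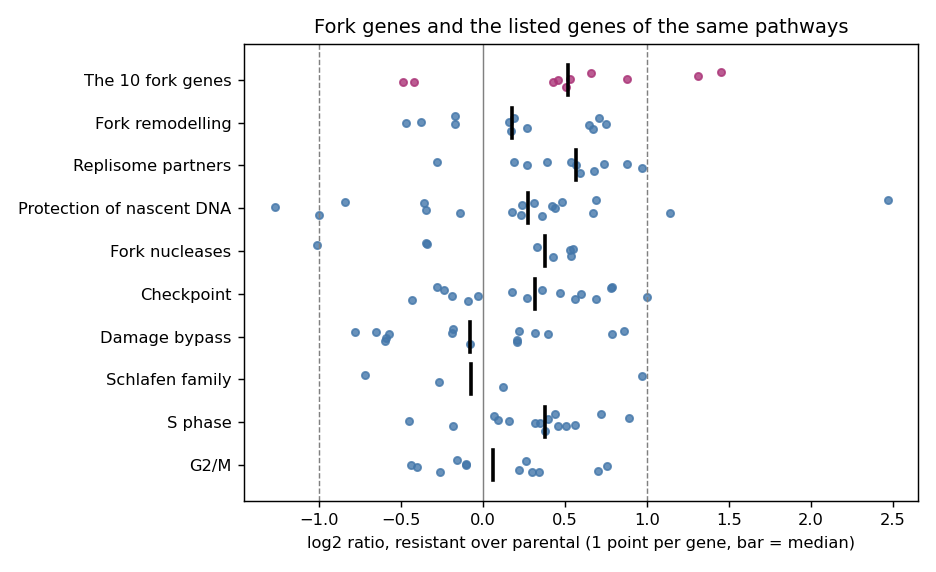
Log2 ratio (resistant over parental) of each gene with 50 counts or more, for the 10 fork genes (top) and 9 lists of related genes; bars are medians and dashed lines mark 2-fold. The fork genes have a median of 0.52, near the 0.57 of the replisome partners, while damage bypass and Schlafen genes have medians of -0.08.

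The genes beside each fork gene in chromosome order were used to describe position. The 5 nearest protein-coding genes with 50 counts or more on each side were taken. TIPIN had a higher log2 ratio than 10 of its 10 neighbours, whose median was -0.15, so that it stood 1.59 above them. ZRANB3 stood 1.52 above a neighbour median of -0.21 and was higher than 9 of 10, the exception being NCKAP5 with 47 and 361 counts. These were the 2 fork genes that differed from their neighbours' median by more than 1. With 10 genes on each side the neighbour medians of TIPIN and ZRANB3 were -0.15 and 0.16.

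CLSPN exceeded 10 of its 10 neighbours, with 0.88 against a median of 0.18, and RAD18 exceeded 8 of 10, with 0.53 against -0.40. The other genes lay nearer to their surroundings. SLFN11 was 0.43 against 0.53 for its neighbours, some of them Schlafen genes, but with 10 genes on each side that median was 0.04. MUS81 was 0.51 against 0.43. HLTF was 0.66 against 0.50, PRIMPOL 0.46 against 0.18, SMARCAL1 -0.42 against -0.05 and TIMELESS -0.49 against -0.28. The widest spread was around HLTF, where CPA3 had 0 and 181 counts and CP had 1160 and 182.

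**Figure D5:**
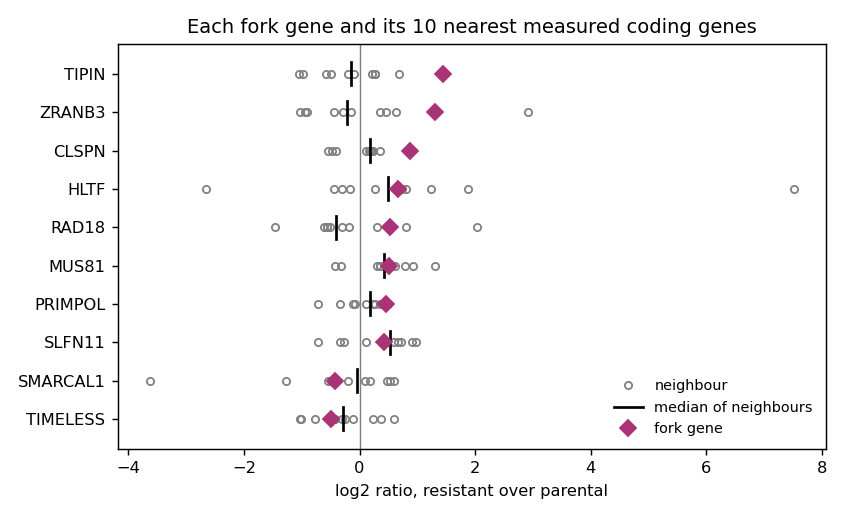
Log2 ratio (resistant over parental) of each fork gene (diamond), its 10 nearest coding genes with 50 counts or more (circles) and their median (bar). TIPIN and CLSPN lie to the right of all 10 of their neighbours and ZRANB3 to the right of 9, while SLFN11, MUS81 and HLTF lie within 0.2 of the median.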

How the data were processed

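RNA-seq of 1 parental and 1 olaparib-resistant Capan-1 library was used (total RNA extracted with Trizol, strand-specific ScriptSeq libraries, per the labels' protocols). The deposited table gives whole-number counts and FPKM per Ensembl gene. The submitters' processing notes name RSEM 1.2.3 and hg19 with no role, with annotation and strand setting not given in the sources used here. Of 31845 identifiers, 29536 were named by the reference table and 29719 were in GENCODE 29, used for names, gene order and lengths only. Promoter windows are from RefSeq GRCh38.p14.

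Counts were scaled with TMM factors (edgeR 4.0.16), and an average of 1 count, scaled to library size, was added before log2 ratios were taken. Calls required 50 counts or more in the higher library and a 2-fold difference, with no test and no p-value. The row length is count divided by FPKM and by the library size that the FPKM values imply, the median over 729 genes with 1 GENCODE transcript, of which 544 then matched their own length within 0.2%. Scripts were tested on simulated data.

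The genes named are the 10 fork genes, then for each list those past 2-fold (up to 4) or else the 2 largest, plus the 2 list genes nearest to each called fork gene; 1 gene this rule names is not reported here. Other list genes given for comparison, markers, overlapping genes and neighbours were named after their values were seen. The 10 genes and the lists were chosen with earlier results of these data known. Alternatives covered scaling, prior, FPKM, length trends, count minimum, fold size and number of neighbours.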

Additional observations from a re-analysis of the deposited data

How the results depend on the processing

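Over 9 other settings per gene (4 scalings, 2 priors, FPKM in place of counts, and 2 length trends removed, of which 1 scaling and 1 trend were chosen after seeing the data), 90 values were computed: 82 moved by less than the counting interval, 8 moved further and 0 changed sign. HLTF ranged from 0.60 to 1.02 on the log2 scale and TIMELESS from -0.55 to -0.33. HLTF reached 1.02 once the trend with counts per FPKM was removed, which made 3 genes 2-fold higher. TIPIN (1.39 to 1.52) and ZRANB3 (1.24 to 1.49) passed 2-fold in each setting. All settings start from the same rows, so none bears on which transcript a row holds. At a 1.5-fold rule 4 of the fork genes were higher and 0 lower, and at 4-fold 0 were higher. The median log2 ratio of the 10 ranged from 0.46 to 0.64, and no setting moved the median of all genes by more than 0.08. No paired analysis was possible because each condition had 1 library. The limits are that nothing here measures spread between cultures, that a row may hold 1 transcript, and that MUS81 (221 counts) and CLSPN (277) have the widest counting intervals.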
